A study of Mus musculus with 15 samples.

Results

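The tissue inhibitors of metalloproteases *Timp1*, *Timp2*, *Timp3* and *Timp4*, the membrane-anchored inhibitor *Reck* and the Kunitz-type inhibitors *Tfpi2* and *Tfpi* were followed in Mouse Embryonic Fibroblasts (MEFs). Their probes were chosen by name, as the non-control probes of the array whose identifier is a RefSeq transcript of 1 of these 7 genes. This gave 12 of the 56605 probes of the array: 1 for *Timp1*, *Reck* and *Tfpi2*, 2 for *Timp2*, *Timp3* and *Timp4*, and 3 for *Tfpi*. All 12 were among the 29334 probes tested, since each was well above background (a mark set by the scanner software) on every array of at least 1 group.

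The MEFs were of the established Balb/c 3T3 line, clone A31, so that every group was the same clone of cultured mouse cells and no group stands for fibroblasts of a tissue. RNA from cells was hybridized to 15 one-color arrays in 5 groups of 3: controls without cytokine, MEFs treated by TNFα (10 ng/ml), by TGFß1 (5 ng/ml), by IL-1β (1 ng/ml), or by IL-6 (20 ng/ml) together with its soluble receptor sIL-6Rα (25 ng/ml). Cells of the control, TNFα and TGFß1 arrays were stimulated for 24 h. The labels name 24 h or 72 h for the cells of the series as a whole, and the exposure of the IL-1β and IL-6 arrays is not stated. The control, TNFα and TGFß1 arrays are described as 3 independent experiments, whereas nothing says so for the other groups. The spread between arrays of the other groups may therefore be technical. One fit over all 15 arrays gave each probe 1 estimate of the spread. The q-values of every comparison, also those of TNFα and TGFß1, thus rest partly on these arrays. An array is called here by its group and the number in its label.

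TIMPs are small secreted proteins that bind the active site of matrix metalloproteases (MMPs) and block it. TIMP3 stays bound to the matrix and also inhibits ADAM and ADAMTS proteases such as ADAM17 and the aggrecanases. RECK is tethered to the cell surface and restrains several MMPs there. TFPI2 is deposited in the matrix and inhibits plasmin and other serine proteases, and TFPI blocks the start of coagulation by tissue factor. Fibroblasts make both the proteases and these inhibitors, whose ratio is known to govern how fast matrix is broken down.

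Values are log2 of the processed spot brightness minus the 75th percentile of the array, so that 0 is the brightness below which 75% of the spots of that array lie and 1 unit is a doubling. A value can be compared between arrays for 1 probe, but not between probes. A gene was called changed at a q-value (limma, Benjamini-Hochberg over all tested probes) under 0.05 where its signal also differed by 1.5-fold or more. Arrays lay on 2 slides, and replicates of 1 group correlated less across slides (r = 0.977 to 0.985) than within a slide (0.990 to 0.995). Each slide held arrays of all 5 groups, so values with slide in the model or within a slide are given beside the calls. All 12 fibroblast markers examined, such as *Col1a1*, *Vim* and *Pdgfra*, were well above background on all 15 arrays, with a summed level (log2) of 9.866 to 10.230 with TNFα, 10.173 to 10.615 with TGFß1, 10.224 to 10.699 with IL-1β, 10.337 to 10.600 with IL-6 and 10.307 to 10.582 in controls. Of 8 leukocyte markers, *Cd68*, *Itgam*, *Csf1r* and *Cd3e* were well above background on all 15 arrays, *Itgam* at 2.54 to 3.86, while *Ptprc*, *Adgre1* and *Lyz2* were on none. Summed leukocyte levels were 2.79 to 3.91 in controls and 2.88 to 4.01 over the treated groups, and 0 of the 4 tested was called against control. Of 5 endothelial markers *Pecam1* was well above background on all arrays and was not called, and the 4 muscle markers were on none. Summed levels of the 6 epithelial markers were -2.62 to -1.24 with TGFß1, -4.12 to -3.74 with TNFα and -3.64 to -2.64 in controls. With IL-1β they were -4.12 to -2.72 and with IL-6 -4.12 to -2.86. Of the 6, 0 was well above background on all arrays, and *Krt18* was on 10 of 15. With TNFα 1 of the 12 fibroblast markers was called higher and 5 lower, with TGFß1 3 higher and 3 lower and 1 epithelial marker higher, and their part in the results below was not tested. In such bulk RNA, fewer cells making a transcript and less of it per cell cannot be told apart.

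Genes listed as checks of the treatments rose with their cytokine. *Nfkbia*, the NF-κB inhibitor induced by NF-κB itself, rose by 2.42 (log2 fold change) with TNFα and 1.11 with IL-1β, *Smad7*, a feedback inhibitor of TGFß signaling, by 2.00 with TGFß1, and *Socs3*, the feedback inhibitor of IL-6 signaling, by 2.39 with IL-6 and its receptor. The chemokine *Ccl5* rose by 8.36 with TNFα and 2.83 with IL-1β.

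TNFα and TGFß1 each lowered *Timp3*, 10.8-fold and 10.4-fold, and *Reck*. TGFß1 also lowered *Timp2* and raised *Tfpi2* and, less securely, *Timp1*. *Tfpi* was called in no comparison. With TNFα, 2 of the 7 genes were called, 0 higher and 2 lower, against 10.2% of all tested probes (4.12% higher and 6.06% lower). With TGFß1, 5 of the 7 were called, 2 higher and 3 lower, against 18% of all probes (7.17% higher and 10.8% lower). With IL-1β and with IL-6 plus its receptor, 0 of the 7 were called by limma, against 0.252% and 0.0648% of all probes. In each, 1 of the 7 had an unadjusted limma p under 0.05, as had 1088 and 955 of the 29334 tested probes. The genes were *Tfpi2* with IL-1β, on signals not well above background, and *Timp1* with IL-6. The median log2 fold change of the 7 genes was -0.49 with TNFα (0.04 over all tested probes), -0.80 with TGFß1 (0.05), -0.30 with IL-1β (1e-04) and -0.25 with IL-6 (-6e-04). With TGFß1 the middle gene is *Timp4*, not called (limma q = 0.599) and with 1 of 3 TGFß1 arrays well above background. With normexp background correction *Timp4* had 0.12 there, so the sign of this median rests on that dim probe. Setting genes that give only a bound to that bound left the TNFα and TGFß1 medians the same. This could not move them, as the gene so set (*Timp4* with TNFα, *Tfpi2* with TGFß1) stays on its side of the median. Adding slide as a term gave 3 calls of 7 with TNFα, *Timp4* being the third (11.9% of all probes), and 5 with TGFß1 (20.1%). The 4 comparisons share the control arrays, so that they are not independent of each other.

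**Figure D1:**
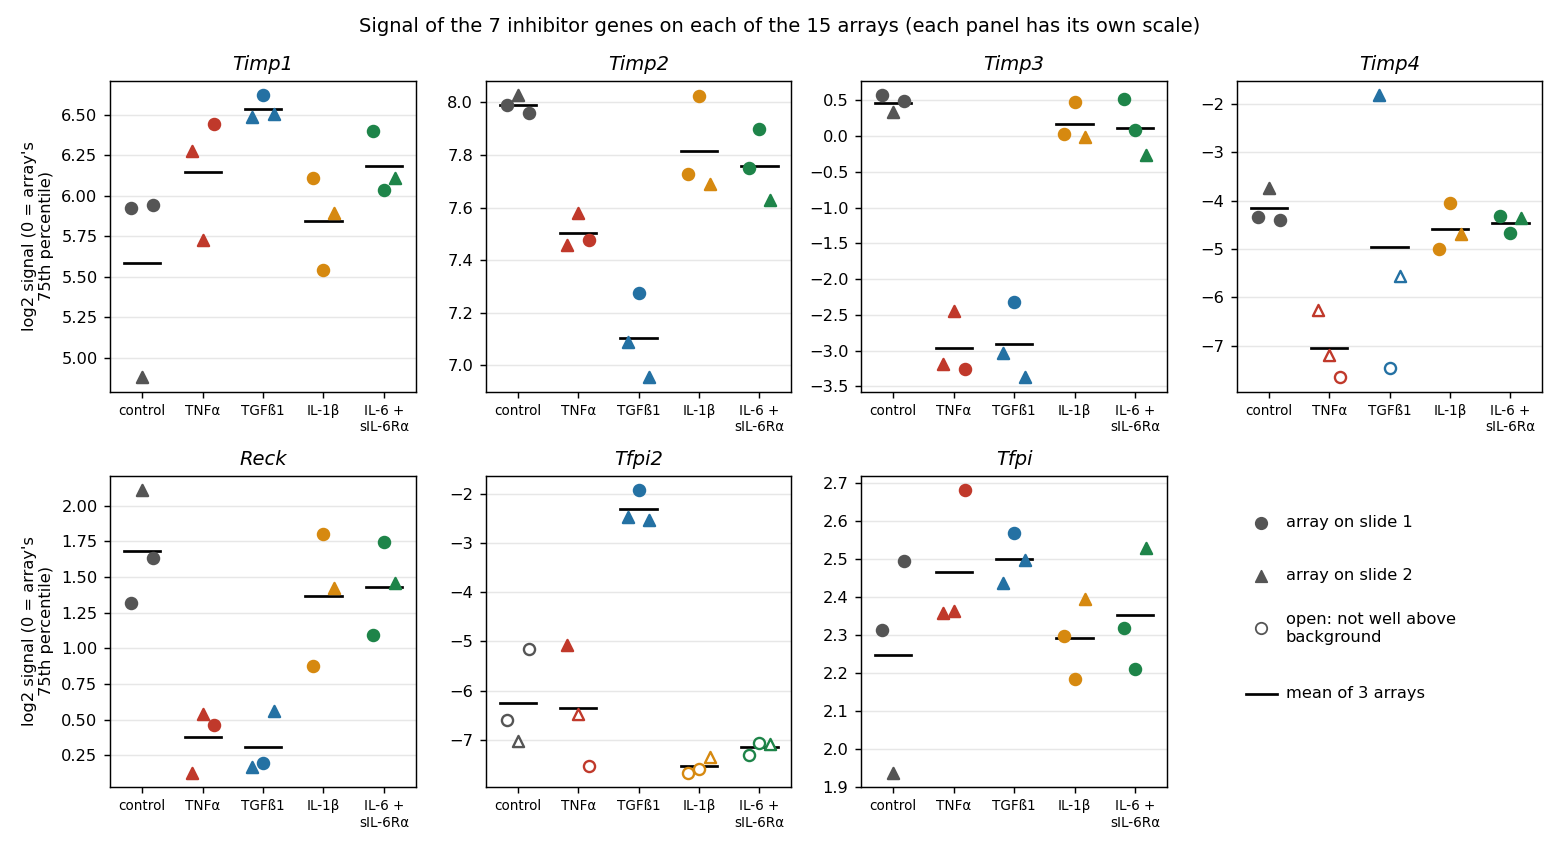
Log2 signal of each gene's brightest probe on the 15 arrays, by treatment (x axis), relative to the array's 75th percentile spot (y axis, own scale in each panel). Circles and triangles are arrays of slide 1 and slide 2, open symbols are not well above background, and bars are means of 3 arrays. For *Timp3* and *Reck* all TNFα and TGFß1 arrays lie below all others, and for *Tfpi2* only the 3 TGFß1 arrays stand high.

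*Timp3* showed the largest called fall among the 7 genes. Its signal (RefSeq transcript NM_011595, brighter of both probes) was 0.57, 0.33 and 0.50 on control arrays 1, 6 and 11. It was -3.18, -2.45 and -3.26 on TNFα arrays 4, 9 and 14, and -3.03, -2.32 and -3.38 on TGFß1 arrays 2, 7 and 12. All 6 of these arrays lay far below every control, while still well above background. On IL-1β arrays 5, 10 and 15 it was 0.03, 0.48 and -0.01, and on IL-6 arrays 3, 8 and 13 it was 0.52, 0.08 and -0.27, both overlapping the controls. The log2 fold change was -3.43 with TNFα (SE 0.29, limma q = 1.43e-05), a 10.8-fold lower signal, and -3.38 with TGFß1 (SE 0.29, q = 1.16e-05), 10.4-fold lower. Within slide 1 the differences were -3.79 and -2.85, and within slide 2 they were -3.15 and -3.53. With IL-1β and IL-6 it was -0.30 (95% interval -0.93 to 0.33, q = 1) and -0.36 (-0.99 to 0.28, q = 1).

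The fall of *Timp3* did not differ detectably between TNFα and TGFß1. The direct log2 difference was -0.05 with a 95% interval of -0.69 to 0.58 (q = 0.95), and it had opposite signs within the slides (-0.94 and 0.39). IL-1β left *Timp3* 8.74-fold higher than TNFα did (log2 3.13, q = 6.95e-05) and 8.42-fold higher than TGFß1 did (3.07, q = 2.15e-05). IL-6 left it 8.41-fold and 8.10-fold higher (q = 3.31e-05 and 2.38e-05). The mean levels thus ordered as control 0.47, IL-1β 0.16, IL-6 0.11, TGFß1 -2.91 and TNFα -2.96, with no call among the first 3 or between the last 2. The second *Timp3* probe, for the same transcript, gave -3.55 with TNFα and -3.37 with TGFß1, with q = 3.57e-05 and 3.39e-05. With normexp background correction, which adds an offset of 50 to the intensities, the brighter probe gave smaller falls of -2.59 and -2.52, both called.

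*Reck* moved with *Timp3* in these comparisons at a smaller scale. Its signal (NM_016678) was 1.32, 2.11 and 1.63 on the controls. It was 0.13, 0.54 and 0.46 with TNFα and 0.17, 0.19 and 0.56 with TGFß1, again 6 arrays below every control. With IL-1β it was 0.87, 1.80 and 1.42, and with IL-6 1.09, 1.74 and 1.46, each spanning control values. *Reck* was 2.47-fold lower with TNFα (log2 -1.31, SE 0.26, q = 0.00600) and 2.60-fold lower with TGFß1 (-1.38, SE 0.26, q = 0.00249), with -1.01 and -1.28 within slide 1 and -1.77 and -1.74 within slide 2. The difference between TNFα and TGFß1 was 0.07 (95% interval -0.49 to 0.64). IL-1β arrays were 1.98-fold above TNFα arrays (q = 0.0448) and 2.08-fold above TGFß1 arrays (q = 0.0118), and IL-6 arrays 2.08-fold (q = 0.0209) and 2.18-fold above (q = 0.00873).

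The stretches of 250 bases before the annotated starts of *Timp3* and *Reck* are shown because both genes fell with the same 2 cytokines, and those of *Tfpi2* because it rose with TGFß1. They are from RefSeq on the build GRCm38.p6, 5′ to 3′ on the strand of the gene, and all 7 genes had an entry. *Timp3* is at chr10:86300162-86300411 on the plus strand, *Reck* at chr4:43875280-43875529 on the plus strand, and *Tfpi2*, which has 3 annotated starts, at chr6:3988859-3989108 and chr6:3968376-3968625 on the minus strand for starts 1 and 3 of the table. The window of start 2, at chr6:3988937-3989186, held no match and is not shown. Capitals mark matches, on either strand, to the letters TGANTCA for AP-1, CAGACA for Smad, TTCNNNGAA for STAT, GGANTTTCC for NF-κB, GGGCGG for Sp1 and TATAAA for the TATA box. These motifs do not overlap each other in the windows shown.
Timp3: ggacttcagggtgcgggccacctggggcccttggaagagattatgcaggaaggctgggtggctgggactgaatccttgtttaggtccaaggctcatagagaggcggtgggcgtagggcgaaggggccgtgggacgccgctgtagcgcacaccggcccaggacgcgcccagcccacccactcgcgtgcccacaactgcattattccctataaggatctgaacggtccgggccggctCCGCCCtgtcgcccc
Reck: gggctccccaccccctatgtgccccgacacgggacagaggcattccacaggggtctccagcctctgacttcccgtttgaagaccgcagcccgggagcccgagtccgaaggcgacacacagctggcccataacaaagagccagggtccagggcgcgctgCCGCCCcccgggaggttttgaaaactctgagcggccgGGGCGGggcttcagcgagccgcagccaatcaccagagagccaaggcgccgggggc
Tfpi2, start 1: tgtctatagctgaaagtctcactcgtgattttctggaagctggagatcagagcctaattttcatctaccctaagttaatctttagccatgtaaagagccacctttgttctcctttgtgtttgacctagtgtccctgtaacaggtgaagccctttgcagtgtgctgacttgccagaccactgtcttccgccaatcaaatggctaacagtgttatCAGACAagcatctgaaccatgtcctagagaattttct
Tfpi2, start 3: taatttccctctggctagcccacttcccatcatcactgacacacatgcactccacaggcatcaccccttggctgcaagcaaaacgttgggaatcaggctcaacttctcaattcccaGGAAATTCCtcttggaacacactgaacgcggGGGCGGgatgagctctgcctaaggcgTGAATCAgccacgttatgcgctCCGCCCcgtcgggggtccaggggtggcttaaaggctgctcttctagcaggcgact

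Both falling genes matched the Sp1 letters, *Timp3* once at 15 bases before the start and *Reck* at 92 and 55 bases, and none of the other letters. The Sp1 letters were not particular to them, as the windows of *Timp1* (8 bases), *Timp2* (37 bases) and *Tfpi* (41 and 159 bases before its 2 starts) held them too. *Tfpi2* held 1 Smad match at 37 bases before start 1, and before start 3 it held 1 NF-κB match (134 bases), 1 AP-1 match (77 bases) and 2 Sp1 matches (103 and 55 bases). Over 32817 distinct windows of the same length in the table, 32.7% held the Sp1 letters, 17.1% Smad, 12.4% TATA, 7.01% STAT, 6.75% AP-1 and 1.07% NF-κB. The windows of *Timp3* and *Reck* were 65.6% and 68.4% G or C and those of *Tfpi2* 43.6% and 56.4%, beside a median of 52.4% over all windows. A match is a string of letters and not a measured site, and its absence says only that the letters are not in these windows.

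*Timp2*, which besides inhibiting MMPs takes part with *Mmp14* in activating pro-MMP2, fell with TGFß1. Its signal (NM_011594) was tight on the controls, at 7.99, 8.03 and 7.96. It was 7.46, 7.58 and 7.48 with TNFα and 7.09, 7.28 and 6.95 with TGFß1. Every TGFß1 array was below every TNFα array, and these below every control. With IL-1β it was 7.73, 8.02 and 7.69, and with IL-6 7.75, 7.90 and 7.63. TGFß1 lowered *Timp2* 1.85-fold (log2 -0.89, SE 0.12, q = 0.000288), with -0.70 and -1.01 within the slides. With TNFα the log2 fold change was -0.49 (SE 0.12, q = 0.0191), which passed the q-value but at 1.40-fold not the fold-change, so that *Timp2* was not called there. Between TNFα and TGFß1 the probe differed by 0.40 (q = 0.0412, 1.32-fold). The second probe of the same transcript was called in that comparison (0.64, q = 0.0347, 1.55-fold) and with TGFß1 against control (-0.96, q = 0.00278). With TNFα against control it had -0.33 (q = 0.295), and its TNFα arrays overlapped the controls. IL-1β and IL-6 arrays were 1.63-fold and 1.57-fold above TGFß1 arrays (q = 0.00136 and 0.00230).

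*Timp1*, an inducible TIMP that also binds pro-MMP9, was the only TIMP called higher with a treatment, and this call did not hold in every fit. The controls were 5.93, 4.88 and 5.95, of which array 6, the control on slide 2, lay well below the other 2. TGFß1 arrays were 6.49, 6.62 and 6.51, above all controls and also above all TNFα arrays, at 6.28, 5.73 and 6.44. With IL-1β the signal was 6.11, 5.54 and 5.89 and with IL-6 6.40, 6.04 and 6.11. TGFß1 raised *Timp1* 1.94-fold (log2 0.95, SE 0.27, q = 0.0229), with 0.69 within slide 1 and 1.62 within slide 2. Without control 6 it was 0.60 (q = 0.0715), and without TGFß1 array 2, 7 or 12 the q-value was 0.0573, 0.0640 and 0.0570. It was 0.0527 without the filter on dim probes, 0.0530 in a fit of the 9 control, TNFα and TGFß1 arrays and 0.0728 in a fit of the control and TGFß1 arrays. With slide in the model the call stood (1.07, q = 0.00641). It was made under 10 of 14 alternatives and in 2 of 6 fits that left out 1 array.
TNFα gave a log2 fold change of 0.57 (q = 0.209), IL-6 0.60 (q = 1) and IL-1β 0.26 (q = 1). With the slide and the runs of label numbers (1 to 5, 6 to 10 and 11 to 15, 1 array of each group in each) as blocks, *Timp1* passed with TNFα (0.70, q = 0.00101) and IL-6 (0.60, q = 0.0320) as well. In the direct comparisons *Timp1* was called in 0 of 6, or in 1 of 6 with slide in the model, where IL-1β arrays were lower than TGFß1 arrays (-0.80, q = 0.0253, against -0.69, q = 0.0869, without it).

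*Timp4*, a TIMP best known from heart, was near the detection limit. On the brighter probe (NM_080639) the controls were -4.33, -3.74 and -4.40, all well above background, and the TNFα arrays -6.26, -7.20 and -7.66, none well above background. The TNFα arrays thus give only a bound, of at least 2.31-fold lower, and the fit did not call it (log2 -2.88, SE 1.00, q = 0.0813). It was called with slide in the model (-3.24, q = 0.0341), with the runs of label numbers as a block as well (q = 0.0168), in a fit of the control and TNFα arrays (q = 0.00875) and as the mean of both probes (-2.19, q = 0.0164). With normexp it had -0.48 (q = 0.424), less than that bound, so that the bound holds for the processed signal only. The TGFß1 arrays were -1.82, -7.48 and -5.57, of which array 2 alone was well above background and higher than every other array of the series. The TGFß1 value was -0.80 (log2, q = 0.599) with this array and -2.36 (q = 0.0110) without it, when neither TGFß1 array left was well above background, so that the size of this fall was not measured. IL-1β arrays were -5.00, -4.05 and -4.70 and IL-6 arrays -4.32, -4.67 and -4.37, all well above background.
The second *Timp4* probe, for the same transcript, did not show the high value on TGFß1 array 2. Its controls were -4.47, -4.45 and -4.71, its TNFα arrays -6.03, -5.99 and -6.11 and its TGFß1 arrays -5.15, -5.85 and -5.19. It was called lower with TNFα (at least 1.77-fold, q = 0.00117) and with TGFß1 (log2 -0.85, q = 0.0179, 2 of 3 arrays well above background). The probes of *Timp4* therefore differ in the call for both cytokines.

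**Figure D2:**
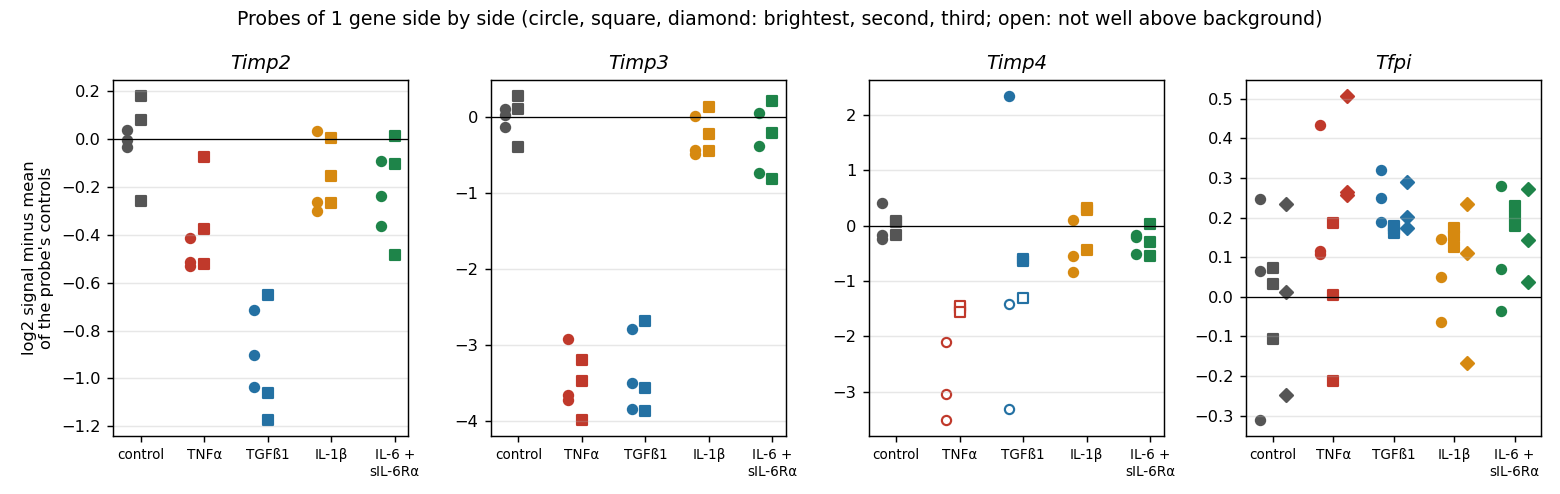
Log2 signal of each probe minus the mean of its 3 controls (y axis), by treatment (x axis), for the 4 genes with several probes. Circles, squares and diamonds are the probes in order of brightness, 1 point for each array, and open symbols are not well above background. Both probes of *Timp3* fall together, while the probes of *Timp4* part on 1 TGFß1 array.

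*Tfpi2* was detected on every TGFß1 array and otherwise on 1 array of the series. The TGFß1 arrays were -2.47, -1.93 and -2.54 (NM_009364). The controls were -6.59, -7.03 and -5.16, and the IL-1β and IL-6 arrays ranged from -7.67 to -7.07, none of them well above background. Of the TNFα arrays, at -5.07, -6.47 and -7.53, array 4 alone was well above background. The probe thus passed the filter on dim probes through the TGFß1 group alone. *Tfpi2* was at least 8.68-fold higher with TGFß1 than in controls (fitted log2 3.94, SE 0.54, q = 0.000293). Without that filter, which the probe passed through its high group, the limma q-value was 0.000775. On both slides the TGFß1 arrays lay above the controls of that slide. With normexp the fitted log2 difference was 1.33 (q = 5.42e-05), below that bound, which therefore holds for the processed signal only. It was at least 9.29-fold higher than with IL-1β (q = 4.08e-05) and at least 7.49-fold higher than with IL-6 (q = 6.85e-05). The fitted log2 difference of TNFα minus TGFß1 was -4.04 (SE 0.54, q = 0.000226). With TNFα against controls the fit gave -0.10 (q = 0.932), on signals that were mostly not above background in both groups.

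*Tfpi*, by contrast, was well above background on all 15 arrays and changed little. On its brightest probe (NM_011576) the controls were 2.31, 1.94 and 2.49, the TNFα arrays 2.36, 2.36 and 2.68 and the TGFß1 arrays 2.44, 2.57 and 2.50. The IL-1β arrays were 2.30, 2.18 and 2.39 and the IL-6 arrays 2.32, 2.21 and 2.53. On this probe all 4 treated groups overlapped the controls. The log2 fold change was 0.22 with TNFα (95% interval -0.11 to 0.54), 0.25 with TGFß1 (-0.07 to 0.58), 0.04 with IL-1β (-0.28 to 0.37) and 0.10 with IL-6 (-0.22 to 0.43), all inside a 1.5-fold change in either direction. None of its 3 probes was called in any of the 10 comparisons. On the second probe, however, the TGFß1, IL-1β and IL-6 arrays lay above every control, and on the third the TNFα arrays did. The largest of these differences was 0.34, for TNFα on the third probe (limma q = 0.145). Its 95% interval of 0.03 to 0.65 reached beyond 1.5-fold. The difference between *Tfpi2* and *Tfpi* in the response to TGFß1 was not tested, since they are different probes.

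**Figure D3:**
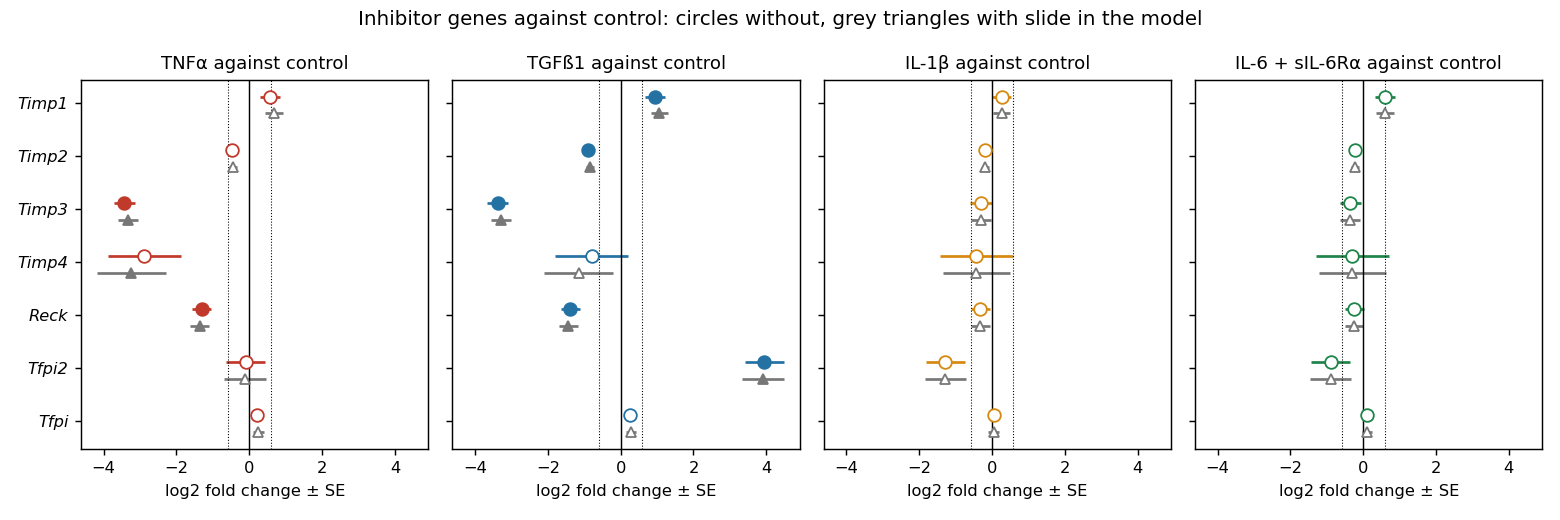
Log2 fold change against control (x axis) with its SE for the brightest probe of each gene (y axis), 1 panel for each treatment. Colored circles are the fit without slide and grey triangles with slide in the model, filled symbols are called, and dotted lines mark a 1.5-fold change. *Timp3* lies at -3.43 and -3.38 with TNFα and TGFß1, *Tfpi2* at 3.94 with TGFß1, and no symbol is filled for IL-1β and IL-6.

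Over the 6 direct comparisons of cytokines, 13 of the 42 combinations of gene and pair were called. TNFα against TGFß1 gave 1 of 7 (*Tfpi2*, 11.8% of all tested probes), and IL-1β against IL-6 gave 0 of 7 (0.419%). In the latter, 0 of the 7 had an unadjusted limma p under 0.05, beside 1417 of the 29334 tested probes. IL-1β and IL-6 each differed from TNFα in 2 of 7 (*Timp3* and *Reck*; 4.83% and 8.68% of all probes) and from TGFß1 in 4 of 7 (*Timp2*, *Timp3*, *Reck* and *Tfpi2*; 17% and 16.4%). With slide in the model, IL-1β against TGFß1 gave 5 of 7 (19.6%). *Timp3*, *Reck* and *Timp2* were the members on the higher side with IL-1β and IL-6, and *Tfpi2* on the lower.

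Among proteases that TIMPs or RECK can inhibit, more rose than fell with TNFα and more fell than rose with TGFß1. Of 29 metalloproteases listed, all on the array, 21 were tested. With TNFα 7 rose and 4 fell, beside 4.12% and 6.06% of all tested probes, and their median log2 fold change was 0.18 (0.04 over all probes). The largest called changes were in the collagenase *Mmp13* (5.84, SE 0.22, q = 1.77e-08), the stromelysin *Mmp10* (4.72, SE 0.47) and the gelatinase *Mmp9* (4.31, SE 0.36). With TGFß1 2 rose and 8 fell, beside 7.17% and 10.8% of all probes, where falls also outnumbered rises, and their median was -0.40 (0.05 over all probes). The largest here were falls in the aggrecanase *Adamts5* (-3.74, SE 0.44, q = 0.000105), the collagenase *Mmp1a* (-3.00, SE 0.48) and the versican- and aggrecan-cleaving *Adamts1* (-2.83, SE 0.47). With slide in the model the TGFß1 counts were 3 and 7.
*Adamts5* and *Adamts1*, chosen for the size of their change with TGFß1, fell with TNFα as well (-2.81, q = 0.00119, and -2.47, q = 0.00428), so that these 2 proteases and *Timp3*, which inhibits ADAMTS proteases, were all lower with both cytokines. *Adamts4*, the other aggrecanase, named after its values were seen, rose with TGFß1 (1.94, q = 0.000346). With IL-1β 1 metalloprotease rose, *Mmp13* (2.60, q = 0.000212), and 0 fell. With IL-6 0 of the 21 were called. *Mmp9* and *Mmp10* had 1.71 (q = 0.106) and 1.41 (q = 0.767) with IL-1β, which did not pass. *Mmp14* and *Mmp2*, named after their values were seen as the partners of *Timp2*, were not called with any cytokine in the fit without slide (0.58, q = 0.0276, for *Mmp14* with TGFß1, and -0.97, q = 0.0818, for *Mmp2* with TNFα). With slide in the model *Mmp14* was called with TGFß1 (0.67, q = 0.00443).

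**Figure D4:**
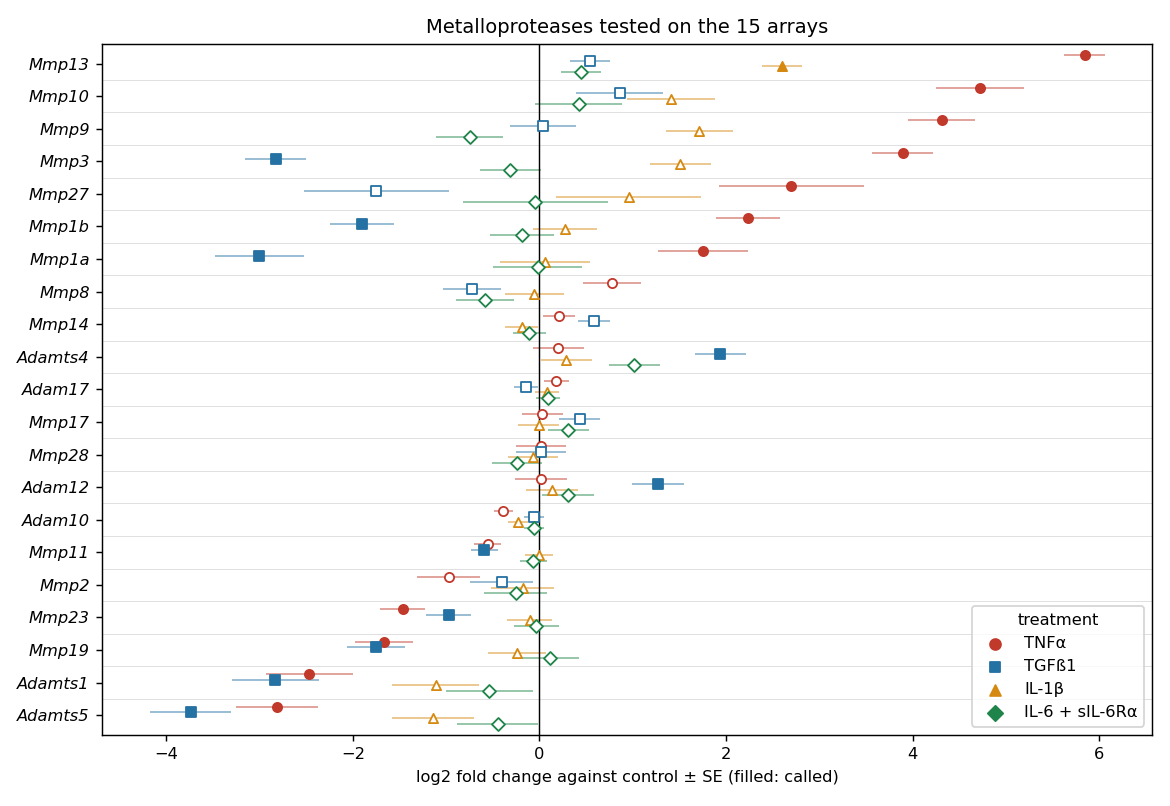
Log2 fold change against control with its SE (x axis) of the 21 metalloproteases tested (y axis, ordered by the TNFα value). Circles are TNFα, squares TGFß1, triangles IL-1β and diamonds IL-6 with its receptor, and filled symbols are called. *Mmp13*, *Mmp10* and *Mmp9* stand farthest right with TNFα, and *Adamts5* and *Adamts1* lie on the left with both TNFα and TGFß1.

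Among 11 serine proteases and coagulation factors that TFPI2 or TFPI can inhibit or bind, 3 were tested. *F3*, the tissue factor that TFPI restrains, fell with TNFα (-1.07, SE 0.22, q = 0.00623) and had 0.01 with TGFß1 (q = 0.980). The plasminogen activator *Plat* rose with TNFα (0.72, q = 0.0310) and with TGFß1 (2.75, SE 0.20, q = 2.87e-06), and *Plau*, named after its values were seen, was not called (0.69 with TNFα, q = 0.118). With IL-1β and IL-6 0 of the 3 were called. The medians of 3 genes were 0.69 with TNFα and 0.49 with TGFß1.

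Of 23 other protease inhibitors, 11 were tested. With TNFα 3 rose and 2 fell, beside 4.12% and 6.06% of all tested probes, with a median of 0.24 (0.04 over all probes). *Serpinb2*, an inhibitor of plasminogen activators, rose by 4.39 (log2, SE 0.79, q = 0.00315), with 1 of 3 controls well above background, and *Slpi*, an inhibitor of leukocyte elastase, by 4.34 (SE 0.50, q = 0.000129). *Serping1*, the C1 inhibitor, was at least 5.76-fold higher (q = 0.000242), with no control well above background. With TGFß1 1 rose and 3 fell, beside 7.17% and 10.8% of all tested probes, with a median of -0.48 (0.05 over all probes). Of those called with TGFß1, *Serpine2*, which inhibits thrombin, fell by 1.35 (SE 0.34, q = 0.0122), and *Pi15*, a secreted protein named as a peptidase inhibitor, was at least 3.70-fold lower (q = 0.00109). *Pi15* was also at least 3.69-fold lower with TNFα (q = 0.00181), as no array of either group was well above background. With IL-1β 1 rose, *Slpi* (4.30, SE 0.50, q = 0.00224), and with IL-6 0 were called.

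*Timp1*, *Timp3* and *Timp4* each lie inside a synapsin gene (*Syn1*, *Syn3* and *Syn2*) in the RefSeq annotation of GRCm38.p6, and *Timp2* overlaps *Cep295nl*. The brightest probes of the 3 synapsin genes were not well above background on any of the 15 arrays. *Cep295nl* was well above background on all 15, and with TGFß1 it had a log2 fold change of -0.65 (SE 0.14, q = 0.00597), where *Timp2* had -0.89. With TNFα it had -0.08 (q = 0.759). Whether the signals of *Timp2* and *Cep295nl* are separate was not tested.

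For each called member, the 3 genes whose brightest probe followed it most closely over the 15 arrays were taken among 13487 named genes, by Pearson's r. These values are descriptions, since all genes share the 15 arrays and their slides. For *Timp3* they were the uncharacterized RNA *Gm32575* (0.979), *Helz2*, a helicase induced by interferon (0.973), and the neurotrophin *Ntf5* (0.966). For *Reck* they were the RNA polymerase III subunit *Polr3gl* (0.984), *Rab40b* (0.982) and *Oxct1*, an enzyme of ketone body use (0.982). For *Timp2* they were the TGFß family ligand *Gdf1* (0.988), *Tmem241* (0.979) and the glutathione transferase *Gstm5* (0.976). For *Timp1* they were *Stard13* (0.957), *Phlda1* (0.955) and the helicase *Ddx51* (0.947), and for *Tfpi2* *1600014C23Rik* (0.969), the complement factor *Cfi* (0.946) and the DNA polymerase *Polb* (0.944). With the slide removed the order changed, with *Stard13* and *Ddx51* at ranks 5 and 8 and *Cfi* and *Polb* at 12 and 11. *Ntf5* was then at rank 7, *Tmem241* and *Gstm5* at 4 and 6, and *Rab40b* and *Oxct1* at 3 and 4. *Tfpi2* was well above background on 3 TGFß1 arrays and 1 TNFα array only, so its r values set these largely against dim signals. Among the members themselves, r was 0.869 between *Timp3* and *Reck*, 0.872 between *Timp3* and *Timp2*, 0.832 between *Timp2* and *Reck*, and -0.761 between *Timp2* and *Tfpi2*.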

How the data were processed

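The authors labelled RNA with Cyanine 3, hybridized it to one-color 60-mer mouse arrays and extracted the spots with Agilent Feature Extraction 10.7.3.1. The deposited intensity of a spot is its processed signal, after background subtraction and spatial detrending, and holds no normalization between arrays. The design is annotated on an older assembly than GRCm38.p6, whose RefSeq table supplied gene names here for 33767 of 56605 probes, so genes get no positions beside the promoter windows. Sequences of the probes were not used here.

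Of 62976 spots an array, 59305 were no controls. Outlier spots (77 to 155 an array) were dropped, log2 signals were averaged for each probe, and the array's 75th percentile (508 to 683 as intensity) was subtracted. A probe was taken as well above background where at least 0.5 of its spots carried that mark, as 48.3% to 54.9% of probes did, and 0 spots were saturated. The filter kept probes with this mark on all arrays of 1 group or more. The brightest probe on average stands for its gene. Intensities carry no count of molecules, and precision rests on 3 arrays a group.

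One linear model a probe was fitted over the 15 arrays with limma 3.58.1 in R 4.3.3, with the group as the only term. Tests were two-sided, and q-values were adjusted by Benjamini-Hochberg over the 29334 probes kept. A group whose arrays all miss the mark has only a bound: its arrays were set to the higher of the probe's value and the lowest marked value on that array before the means were subtracted. The fit was tested on simulated data with independent noise on each array. These data held no effect of slide or run, so the test cannot show how leaving both out bears on the q-values. Genes named are the 7 members, the 3 called genes of each list with the largest absolute change per cytokine, the 3 genes most like each called member, and the treatment checks. *Adamts4*, *Mmp14*, *Mmp2* and *Plau* were added after their values were seen, and 1 gene that the rule names is not reported here. The members and lists were chosen with earlier results of these data known.

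Slide 1, by the scanner files' headers, held control 1 and 11, TNFα 14, TGFß1 7, IL-1β 5 and 10 and IL-6 3 and 8, and slide 2 the others. No label ties arrays to an experiment. After removing the slide, the 30 pairs of arrays from 1 run of label numbers had deviations correlated at r = 0.114 to 0.671, and 2 of 60 pairs of different runs exceeded 0.1. With the slide kept these were 12 of 30 and 28 of 60. With the slide removed, arrays of 1 run thus deviated together, and the main fit leaves this pairing out. The methods name no block, so the run served as a block in alternatives only. The further alternatives were quantile normalization, normexp, the value table of the series, other filters and thresholds, fewer groups in the fit, the mean over probes, and each array left out.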

Additional observations from a re-analysis of the deposited data

How the results depend on the processing

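With the runs of label numbers as a block together with the slide, 4 of the 7 genes were called with TNFα and 1 with IL-6, and with a fold-change of at least 2, 3 were called with TGFß1. The other alternatives run kept each count within 1.5 times. Leaving out 1 array at a time gave 2 to 2 calls with TNFα, 4 to 5 with TGFß1, 0 to 0 with IL-1β, 0 to 0 with IL-6, and 11 to 16 over the direct comparisons. For the run block, the fold-change of at least 2 and the fits without 1 array, the share of all tested probes called was not computed. A changed count there therefore need not be particular to the 7 genes. The calls of *Timp3* and *Reck* with both cytokines, and of *Tfpi2* with TGFß1, held under every alternative that gave a q-value for them and without each array, but with normexp the values of *Timp3* and *Tfpi2* were smaller by over 1.5-fold. *Timp4* with TNFα was called under 4 of 13 alternatives. The log2 fold changes that turned sign were not called: *Tfpi2* with TNFα was 0.044 with normexp and -0.74 to 0.49 without 1 array (0.45 without control 11, 0.49 without TNFα 14). *Timp4* with TGFß1 was 0.12 with normexp and -2.36 to 0.46 without 1 array, the highest without TGFß1 7. Without 1 array, *Timp1* with IL-1β was -0.089 to 0.44, *Tfpi* with IL-1β -0.11 to 0.17 (-0.007 without IL-1β 15) and *Tfpi* with IL-6 -0.05 to 0.23, each lowest without control 6. With normexp, 52.5% of the probes called between IL-1β and TGFß1 were higher with IL-1β, beside 63.1% without it. The cause was not tested. Dim signals limit *Timp4* and *Tfpi2*, whose low groups were not well above background.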
